A study of Mus musculus with 2 samples.

Results

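The genes described here are 39 chromatin regulators that are recurrently linked to leukaemia. They were chosen by name, as a fixed list, with earlier results of these data known. A probe belonged to a member where the RefSeq accession in the scanner file pointed to the member's symbol. By that rule 38 of the 39 members had at least 1 probe, 61 probes in all, out of 20618 genes named on the array. No probe accession matched Kmt2a, the MLL1 methyltransferase gene, in the table used for naming, so Kmt2a was not analysed here. The members were grouped by role into DNA methylation (6 genes), polycomb (10), trithorax and other histone methyltransferases (6), SWI/SNF remodelling (6), histone deacetylases (4), histone demethylases (4), and cohesin with CTCF (3).

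The study compared mouse leukaemia cells of the B-ALL type (acute lymphoblastic, of B cell origin), sorted from bone marrow into a SoNar-high and a SoNar-low group. SoNar is a fluorescent sensor protein whose excitation ratio follows the balance of NADH and NAD+ in the cytosol, and the sort used that ratio. Both groups came from C57BL mice of 8 weeks, and each was measured as total RNA on 1 Cy3 Agilent array. In their titles the SoNar-high sample is called N-myc-high and the other one N-myc-low, and the labels explain neither this naming nor how the leukaemia was made, nor how many animals were pooled. With 1 array a group there is no replicate, no test was made, and every value below describes these 2 arrays.

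Chromatin regulators set which genes a cell can read. DNA methyltransferases add methyl groups to cytosine and TET enzymes oxidise them, polycomb complexes keep genes silent while trithorax methyltransferases oppose them, SWI/SNF complexes slide nucleosomes, deacetylases and demethylases remove marks from histone tails, and cohesin with CTCF folds the genome into loops. In acute leukaemias these genes are often mutated, fused or deregulated, and several of them are needed for B cell precursors to divide and differentiate.

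Detection differed between the arrays: 72.9% of the 43020 non-control spots stood well above background in SoNar-high, and 44.8% did in SoNar-low. The dimmest detected probe had a processed signal of 19.7 in SoNar-high and of 46.4 in SoNar-low. The arrays were scanned in separate sessions, and session and group cannot be told apart. Levels are log2 processed signals minus each array's 75th percentile, and a difference is SoNar-high minus SoNar-low on that scale. It is lower by 0.15 than the log2 ratio of the processed signals themselves. Of 17 B-lineage genes 13 were measured on both arrays, as were 11 of 14 neutrophil genes and 10517 of the 20618 named genes. Cd79b was bright, with processed signals of 14376 in SoNar-high and 12625 in SoNar-low, and so was Blnk, with 6661 and 9901. Cd79a gave 379 and 440, and Pax5 gave 226 and 186 from the 1 of its 2 probes that was measured. Of the genes that mark earlier precursors, Vpreb1 (128 and 118) and Dntt (169 and 182) were measured on both arrays, Vpreb2 was detected in SoNar-high alone, and Igll1, Rag1 and Rag2 did not stand well above background in either sample.

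After scaling to the 75th percentile, no measured chromatin regulator reached a 2-fold difference between the arrays. That count depends on the scaling: with median scaling, which shifts every difference by -0.61, 14 of the 36 measured members (38.9%) were at least 2-fold lower, beside 31.4% of all genes, and with the 75th percentile of spots detected on both arrays Tet1 was 2-fold higher. In the main scaling, of the 39 members 36 had a probe well above background on both arrays, and 0 were at least 2-fold higher in SoNar-high, where 4.87% of all 10517 measured genes were, and 0 were at least 2-fold lower, where 1.68% were. The largest differences were those of Stag2, 1.98-fold lower in SoNar-high, and Hdac7, 1.92-fold lower, both just short of 2-fold. The median difference of the members was -0.19, beside -0.17 for all measured genes. The members lay evenly around that all-gene median, 18 above and 18 below. Their differences ran from -0.99 to 0.80, and 34 of the 36 lay in the middle 95% of all genes, which spans -0.94 to 1.34.

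The one regulator with a larger gap was Cbx7, a polycomb reader protein known for silencing the Ink4a/Arf locus. Its probe gave a processed signal of 309 in SoNar-high and 27.9 in SoNar-low, where it was not well above background. Measured this way the levels were -0.77 and -4.09. Since the SoNar-low value is only a bound, the comparison was made with the lowest detected level of that array, -3.36, which places Cbx7 at least 6.02-fold higher in SoNar-high. For comparison, 5454 genes were detected in SoNar-high alone and 11 in SoNar-low alone, so bounds of this kind ran almost only towards SoNar-high. For 5.67% of the 5454 genes the bound reached 2-fold. There were 8 with a bound above that of Cbx7. The bound was at least 3.94-fold with median scaling and at least 2.88-fold with normexp background correction, the lowest of the settings tried. The value rests on 1 probe with 1 spot.

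**Figure D1:**
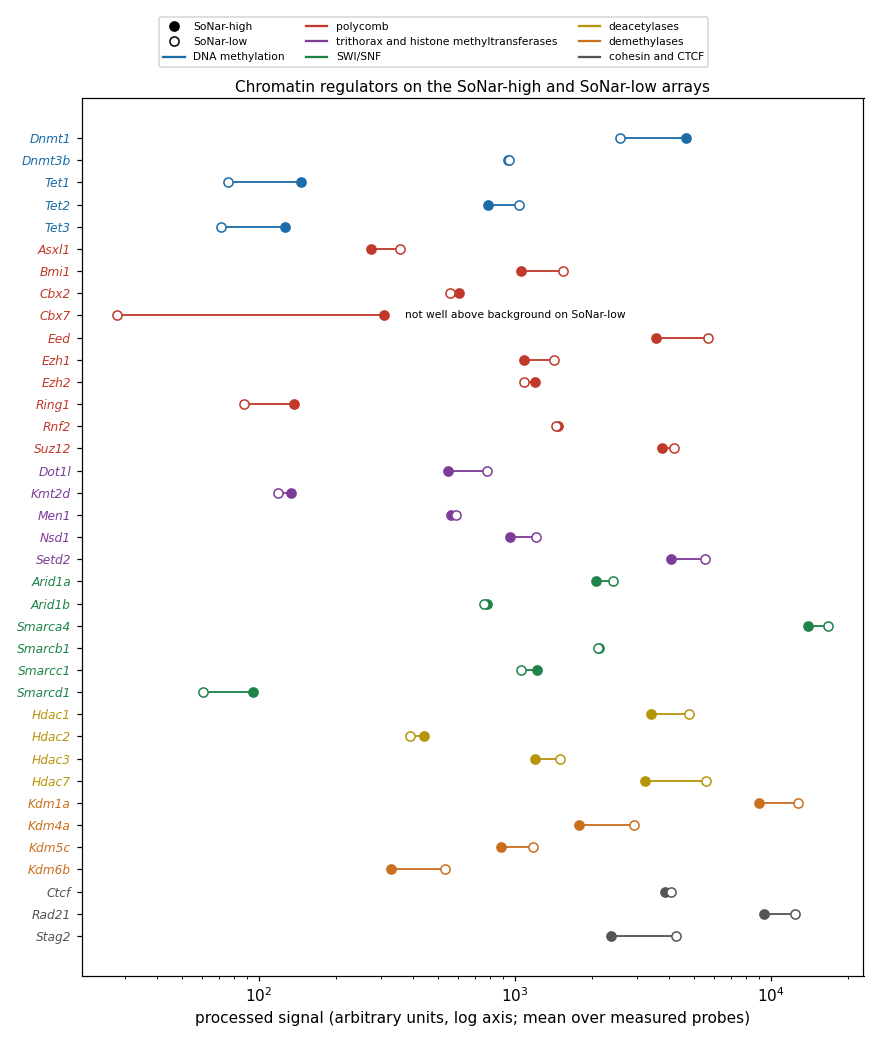
Processed signal (arbitrary units, log axis) of the 37 chromatin regulators detected on at least 1 array, as the mean over measured probes, with filled points for SoNar-high and open points for SoNar-low, 1 array each. Signals are comparable along a row and not between rows. Cbx7 has the widest gap, 309 against 27.9, and its SoNar-low signal was not well above background.

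The promoters of 5 members are printed to show the sequence around genes near the ends of the list: Cbx7 with its bound, Tet1 with the highest measured difference, and Hdac7, Kdm4a and Eed among the lowest. They were chosen with their values known. The RefSeq promoter table (GRCm38.p6) held 32 of the 39 members, and the 250 bases before the start site were taken. Hdac7 has 4 windows in the table, and the one with the most cytosine-guanine dinucleotides is shown. All 5 lie on the minus strand, Cbx7 at chr15:79932647-79932896, Tet1 at chr10:62887325-62887574, Hdac7 at chr15:97831496-97831745, Eed at chr7:89980977-89981226 and Kdm4a at chr4:118180044-118180293. Capitals mark matches on either strand to the motifs searched.
Cbx7: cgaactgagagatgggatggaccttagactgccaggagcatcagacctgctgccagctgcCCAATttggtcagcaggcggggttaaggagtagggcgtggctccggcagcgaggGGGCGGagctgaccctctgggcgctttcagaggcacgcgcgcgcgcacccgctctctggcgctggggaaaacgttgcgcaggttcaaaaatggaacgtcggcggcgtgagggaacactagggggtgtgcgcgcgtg
Tet1: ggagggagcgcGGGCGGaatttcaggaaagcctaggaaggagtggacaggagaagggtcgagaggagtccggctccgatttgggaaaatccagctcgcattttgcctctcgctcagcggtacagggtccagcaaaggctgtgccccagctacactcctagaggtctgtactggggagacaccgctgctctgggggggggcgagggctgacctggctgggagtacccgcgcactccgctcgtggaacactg
Hdac7: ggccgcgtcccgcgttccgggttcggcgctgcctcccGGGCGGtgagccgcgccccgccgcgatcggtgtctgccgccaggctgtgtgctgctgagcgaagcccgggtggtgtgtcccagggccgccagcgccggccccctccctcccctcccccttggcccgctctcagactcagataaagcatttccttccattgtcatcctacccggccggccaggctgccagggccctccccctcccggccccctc
Eed: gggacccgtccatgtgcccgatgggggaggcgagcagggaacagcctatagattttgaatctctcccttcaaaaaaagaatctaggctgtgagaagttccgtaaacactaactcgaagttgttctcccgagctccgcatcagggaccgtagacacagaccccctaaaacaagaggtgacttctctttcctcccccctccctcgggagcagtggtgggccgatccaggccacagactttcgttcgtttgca
Kdm4a: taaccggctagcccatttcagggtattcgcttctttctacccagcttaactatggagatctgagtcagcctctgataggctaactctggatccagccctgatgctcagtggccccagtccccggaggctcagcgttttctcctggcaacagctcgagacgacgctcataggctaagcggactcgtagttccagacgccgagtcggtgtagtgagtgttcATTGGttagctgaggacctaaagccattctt
The Cbx7 window holds 1 GC box (GGGCGG or CCGCCC) and 1 CCAAT box (CCAAT or ATTGG), those of Tet1 and Hdac7 1 GC box each, that of Kdm4a 1 CCAAT box, and that of Eed neither. Cytosine-guanine dinucleotides, the substrate of the DNA methyltransferases listed here, numbered 23 in the Cbx7 window, 15 in that of Tet1, 25 in that of Hdac7 and 12 each in those of Eed and Kdm4a, beside a median of 6 over all 32851 windows of the table. With the highest window taken where a member had several, the median over the 32 members was 24, and all 32 were at or above the median of all windows. For the motifs, a member counted where any of its windows matched, while the percentages are over single windows, so the units differ. A GC box was found in 26 of the 32 members and in 32.7% of all windows, and a CCAAT box in 9 of 32 and 33.8%. The E-box CACGTG, bound by MYC proteins, was found in Bmi1 and Dnmt3a alone, 2 of 32, beside 6.02% of all windows. The E2F motifs TTTCCCGC and TTTGGCGC, read on both strands, were found in Arid1a, Smarcd1 and Suz12, beside 1.30%. TATAAA, present in 12.4% of all windows, was found in none of the 32. These are matches of letters in a window and not measured binding.

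Among the DNA methylation genes the maintenance enzyme and 2 of the TET oxidases had more signal in SoNar-high. Dnmt1, which copies methylation onto new DNA strands, gave processed signals of 4658 in SoNar-high and 2567 in SoNar-low, 1.64-fold higher after scaling, with a difference of 0.71. Tet1 gave 146 and 75.7, a difference of 0.80 from the 1 of its 2 probes detected on both arrays. Tet3 gave 126 and 71.0 as the mean of 2 probes, a difference of 0.71. These probes did not give the same size, 0.27 and 1.15, and another probe was not detected. Both dim TET values depended on the processing: under quantile normalization, cyclic loess, normexp and the authors' value table Tet1 was at 0.38 to 0.43 and Tet3 at 0.22 to 0.28, while Dnmt1 was at 0.78 to 0.95. Tet2, the TET gene most often mutated in blood cancers, stood the other way with 786 and 1040, a difference of -0.51 from probes at -0.26 and -0.76. Dnmt3b, a de novo methyltransferase, gave 939 and 950 over 3 probes and a difference of -0.07. The single probe of Dnmt3a, the other de novo enzyme, was not well above background on either array, with processed signals of 7.82 and 9.29. The median of the 5 measured genes was 0.71, and it lay above the all-gene median under all 14 settings, the main one included, by between 0.14 and 0.88. In this and later counts of settings only 10 of the 13 alternatives could change a side, since the others shift all genes alike. The 10 other DNA methylation genes measured had a median of -0.10, with 7 above the all-gene median.

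The signal level of these genes differed, and difference went with level over the whole array. Among all measured genes the median difference was 0.09 in the lowest quartile of mean level, -0.08 in the second, -0.26 in the third and -0.34 in the highest. Tet1, Tet3, Ring1, Smarcd1 and Kmt2d were the 5 members in the lowest quartile, and all 5 lay above its median. Dnmt1 was in the highest quartile, and 97.8% of the genes there had a lower difference. Tet1 stood at percentile 86.0 of its own quartile and Tet3 at 82.9. The part of signal level in the members' differences was not tested. In total 21 members lay above the median of their own quartile and 15 below.

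**Figure D2:**
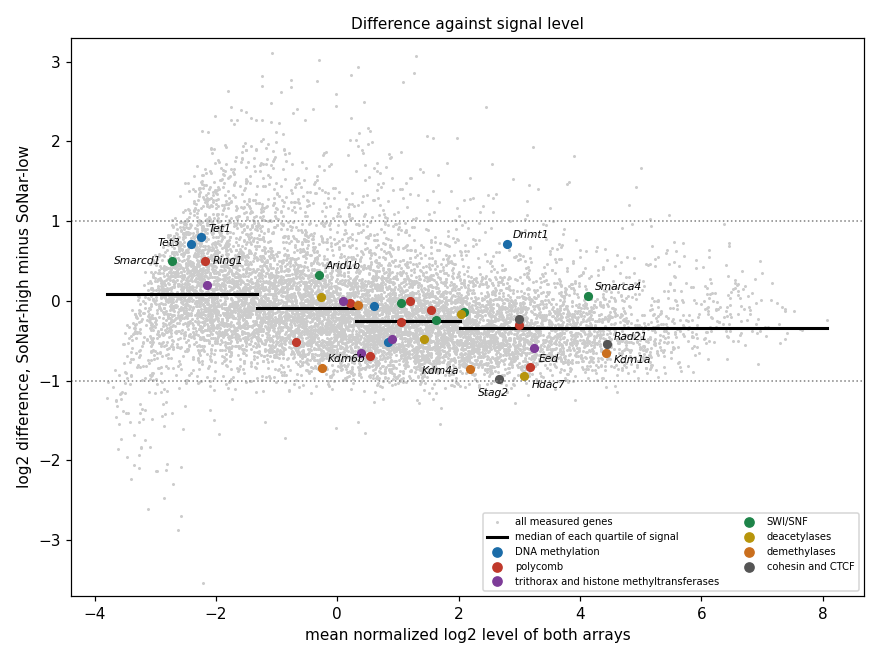
Log2 difference (SoNar-high minus SoNar-low) against the mean normalized log2 level of both arrays, with grey points for all 10517 measured genes, coloured points for the 36 measured members by class, and black bars for the median of each quartile of level. The black bars step down from 0.09 to -0.34, and Dnmt1 lies far above the bar of its quartile while Stag2 and Hdac7 lie far below.

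The polycomb genes spread widely: Cbx7 and Ring1 had more signal in SoNar-high, Eed, Bmi1 and Asxl1 had less, and the others lay nearer the all-gene median. PRC2, the complex that methylates histone H3 to silence genes, was uneven. Its scaffold Eed gave processed signals of 3565 in SoNar-high and 5712 in SoNar-low, 1.77-fold lower after scaling (difference -0.83). Suz12, which holds the complex together, gave 3761 and 4195 (-0.30), and the catalytic subunit Ezh2 gave 1204 and 1091 (-0.0028). Ezh1, the alternative catalytic subunit of resting cells, gave a mean difference of -0.27 from probes at -0.78 and 0.25, and its remaining probe was not detected.

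PRC1, which ubiquitinates histone H2A, was uneven as well. Bmi1, needed for self-renewal of leukaemic cells, gave 1057 in SoNar-high and 1540 in SoNar-low, 1.61-fold lower after scaling, and its 2 probes had the same difference of -0.69. In the main setting the catalytic RING proteins stood apart from each other: Ring1 was at 0.50, with dim signals of 138 and 87.7, and Rnf2 at -0.12, with 1477 and 1449. Ring1 was above the all-gene median in all 13 settings that gave it a value, but its own difference was 0.08 to 0.15 under quantile normalization, cyclic loess, normexp and the authors' value table. With quantile normalization Ring1 was at 0.08 and Rnf2 at 0.05, and with cyclic loess at 0.15 and 0.10. Cbx2, a reader of the same family as Cbx7, gave 605 and 556, a difference of -0.02, so the gap of Cbx7 had no counterpart there. Asxl1, which partners the H2A deubiquitinase Bap1, gave 275 and 356 (-0.52). Over the 9 measured polycomb genes 1 difference was above 0 and 8 below, where 36.8% of all measured genes were above 0. Relative to the all-gene median, 4 of the 9 lay above and 5 below. The class median was -0.27, below that of all genes in 11 settings and above it with the authors' value table, cyclic loess and quantile normalization. The 20 other polycomb genes measured had a median of -0.34.

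Of the 5 measured trithorax and other histone methyltransferases, 3 lay below the all-gene median and 2 above it. Setd2, which methylates histones along transcribed genes and is mutated in leukaemia, had a probe printed 10 times on each array. Those spots ranged from 3799 to 4483 (median 4058) in SoNar-high and from 5242 to 6374 (median 5331) in SoNar-low. The difference was -0.59 ± 0.13 (SD over 10 spots of 1 array pair), and it was below 0 in all 10. The spots of an array share its RNA and are not replicates of the group. Setd2 was in the highest quartile of level, where the median was -0.34, and 24.2% of the genes there had a lower difference. Dot1l, the methyltransferase that MLL fusion proteins recruit, gave 547 and 777, a difference of -0.65. Nsd1 was at -0.48, with probes at -0.49 and -0.47. Men1, the MLL cofactor menin, averaged 0.0020 over probes opposed at -0.66 and 0.67. Kmt2d, a methyltransferase of enhancers, was at 0.19 from probes at -0.20 and 0.59, and at -0.24 to -0.10 under the same 4 alternatives as for Ring1. The class median of -0.48 lay below the all-gene median by 0.12 to 0.62, in the main setting and in the 10 alternatives that could change a side. The 17 other measured genes of this kind had a median of -0.27.

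In SWI/SNF, the nucleosome remodelling complex, no member was far from the all-gene median except where probes conflicted or signals were dim. The ATPase gene Smarca4 gave 14026 in SoNar-high and 16762 in SoNar-low over 2 probes, which differed by -0.51 and 0.62. Smarcb1, a core subunit and tumour suppressor, gave 2129 and 2120 (-0.14). Smarcc1, a core scaffold, gave 1216 and 1062 (-0.03, probes from -0.53 to 0.35). Arid1a, the subunit most often lost in cancer, gave 2075 and 2410 (-0.24). Its paralogue Arid1b averaged 0.33, but 2 of its probes were at -0.28 and -0.41 and the last at 1.66, so that mean describes none of them. Smarcd1 was at 0.50, with dim signals of 94.4 and 60.3, but at 0.11 with normexp and at -0.03 with the authors' value table, cyclic loess or quantile normalization. The class median of 0.01 was above that of all genes in 13 settings and below it with detection on at least 1 array. The 16 other SWI/SNF genes measured lay lower, with a median of -0.33 and 13 below the all-gene median.

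Of the deacetylases Hdac7, a class IIa enzyme that holds down myeloid genes in B cell precursors, had the clearest gap. It gave 3218 in SoNar-high and 5573 in SoNar-low, a difference of -0.94, with 1.94% of the genes in its quartile lower still. The class I enzymes were closer together. Hdac3, the catalytic subunit of the NCoR complexes, was at -0.48, with 1195 and 1507. Hdac1 was at -0.16, but its 3 probes ran from -0.74 to 0.66. The probe of its paralogue Hdac2 kept 9 of its 10 spots after outlier removal, with processed signals from 408 to 496 (median 438) in SoNar-high and from 308 to 447 (median 388) in SoNar-low. These spots overlapped between the arrays, and the difference was 0.05 ± 0.26 (SD over 9 spots), below 0 in 5. The class median of -0.32 was below that of all genes in 11 settings, and above it in the same 3 as for polycomb. The 17 other deacetylase complex genes measured had a median of -0.13.

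**Figure D3:**
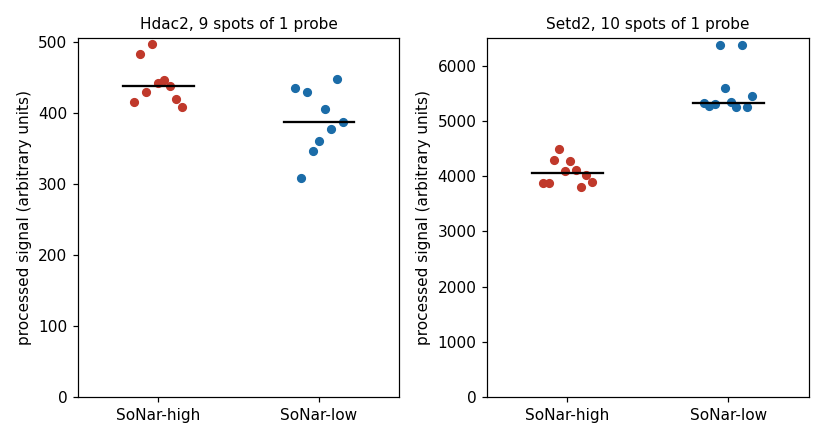
Processed signal (arbitrary units, axis from 0) of each spot of the Hdac2 probe (9 spots) and the Setd2 probe (10 spots) on the SoNar-high and SoNar-low arrays, with a bar at the median. The medians in SoNar-high and SoNar-low are 4058 and 5331 for Setd2, and 438 and 388 for Hdac2. Spots of 1 array share its RNA and show printing and scanning noise only.

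All 4 demethylase members had differences below 0, where 36.8% of all measured genes were above 0. Relative to the all-gene median, 3 of the 4 lay below and 1, Kdm5c, above. The median of the 4 was -0.75. The 14 other demethylases measured had a median of -0.11, and 10 of them were below 0. Relative to the all-gene median, 8 of these 14 lay above and 6 below. Over all 18 the median was -0.16, beside -0.17 for all genes. Kdm4a, which removes methyl groups linked to silent chromatin, gave 1778 in SoNar-high and 2916 in SoNar-low from its measured probe (-0.86, or 1.81-fold lower). Kdm6b, which removes the polycomb mark, gave 328 and 533 (-0.85). Kdm1a, the LSD1 enzyme that is a drug target in leukaemia, gave 8994 and 12762 (-0.65). Kdm5c averaged -0.05 from probes at -0.72 and 0.62. The median of the 4 members lay below the all-gene median by 0.36 to 0.59, in the main setting and in the 10 alternatives that could change a side. It was the lowest of the class medians in the main setting, but not without a filter on dim probes or with detection on at least 1 array, where those of cohesin and trithorax were lower. For Kdm4a itself, averaging in its dim second probe, as without a filter, took the value to 0.08 above the all-gene median.

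Cohesin genes also had less signal in SoNar-high. Stag2, a cohesin subunit mutated in myeloid leukaemia, gave 2378 in SoNar-high and 4259 in SoNar-low, a difference of -0.99, and 1.84% of all measured genes were lower. Rad21, the clasp of the ring, gave 9415 and 12423 (-0.54). Ctcf, the DNA-binding factor at loop anchors, gave 3865 and 4079 (-0.22), closest to the all-gene median. Of the other cohesin genes 9 were measured, and 7 lay below the all-gene median. They included the ring subunits Smc3 (-0.97) and Smc1a (-0.55), the release factor Wapl (-0.83) and the acetyltransferases Esco2 (-0.72) and Esco1 (-0.59). The loader genes Nipbl (0.07) and Mau2 (0.40) were above it. The median of the 9 was -0.55, beside -0.54 for the 3 members.

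**Figure D4:**
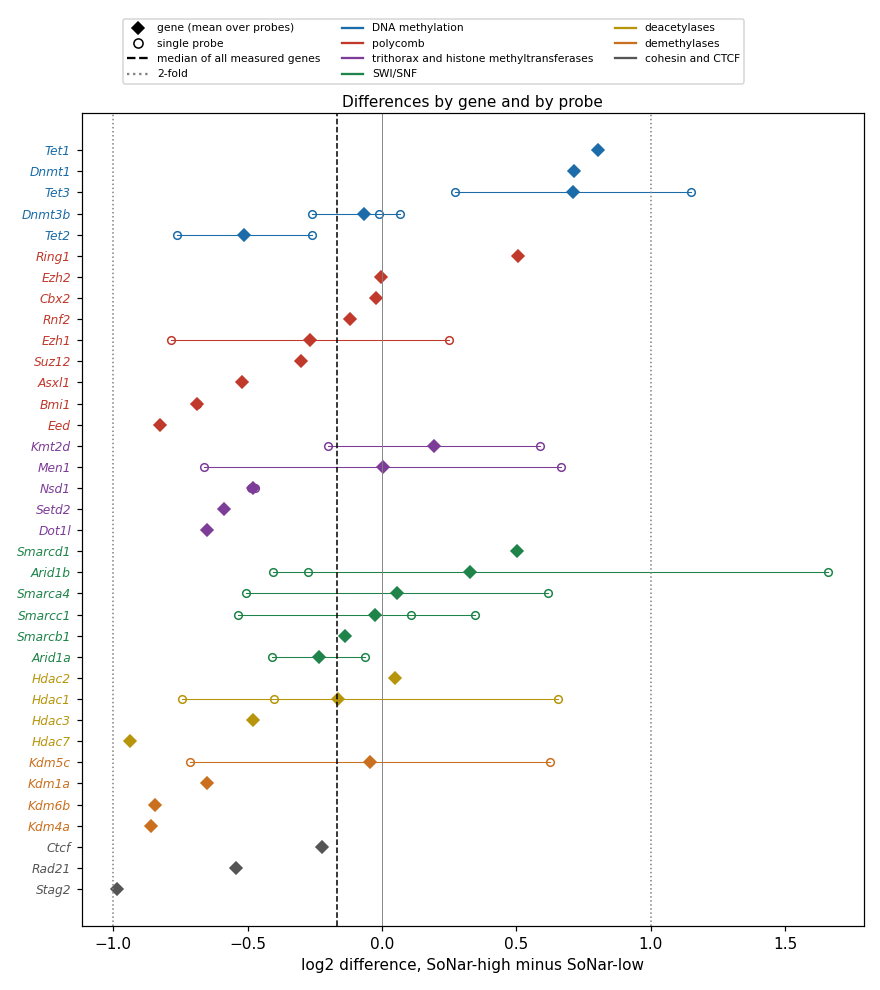
Log2 difference, SoNar-high minus SoNar-low, for the 36 measured members by class, with diamonds for the gene's mean over probes, open circles for single probes of genes with several, a dashed line at the all-gene median of -0.17 and dotted lines at 2-fold. No diamond lies beyond 2-fold, and all demethylase and cohesin diamonds lie below 0, where 36.8% of all measured genes lie above 0. Single probes of Arid1b, Men1, Hdac1, Kdm5c and Smarca4 lie on both sides of 0.

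Probes of the same member often disagreed. Of the 36 measured members 22 rested on 1 probe and 14 on several, and in 9 of these 14 (64.3%) the probes had opposite signs, beside 48.9% of the 2394 such genes on the array. The median SD between probes of a member was 0.59, beside 0.32 over all such genes and a median SD of 0.15 between spots of a repeated probe. In 10 of the 14 members the brightest probe had a lower difference than the dimmest, and over all such genes this held for 66.5%. With the brightest probe in place of the mean, the member median minus the all-gene median was -0.26, beside -0.03 in the main setting. Among members with several probes, Bmi1, Nsd1 and Tet2 had every probe below the all-gene median and Tet3 every measured probe above it.

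Some paralogues lay apart in their differences and others did not. In the main setting Tet1 exceeded Tet2 by 1.32 in its difference, and Tet2 lay 1.22 under Tet3. These gaps were smaller with quantile normalization, where Tet1 was at 0.38, Tet2 at -0.43 and Tet3 at 0.25. With cyclic loess they were at 0.43, -0.33 and 0.28. Ring1 exceeded Rnf2 by 0.62 in the main setting, but with quantile normalization they were at 0.08 and 0.05. Ezh1 and Ezh2 were 0.27 apart, Hdac1 and Hdac2 0.21, and Arid1a and Arid1b 0.56, gaps under the median SD of 0.59 between probes of a member.

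Relative to the all-gene median, 18 of the 36 measured members kept their side in every setting in which they had a value. The 5 above were Dnmt1, Tet1, Tet3, Ring1 and Smarcd1, and all but Dnmt1 had no value under the stricter filter. The 13 below were Tet2, Eed, Bmi1, Asxl1, Dot1l, Nsd1, Setd2, Hdac3, Hdac7, Kdm1a, Kdm6b, Rad21 and Stag2. The other 18 changed side in at least 1 setting. Only 10 of the 13 alternatives could change a side, since the others shift all genes alike.

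**Figure D5:**
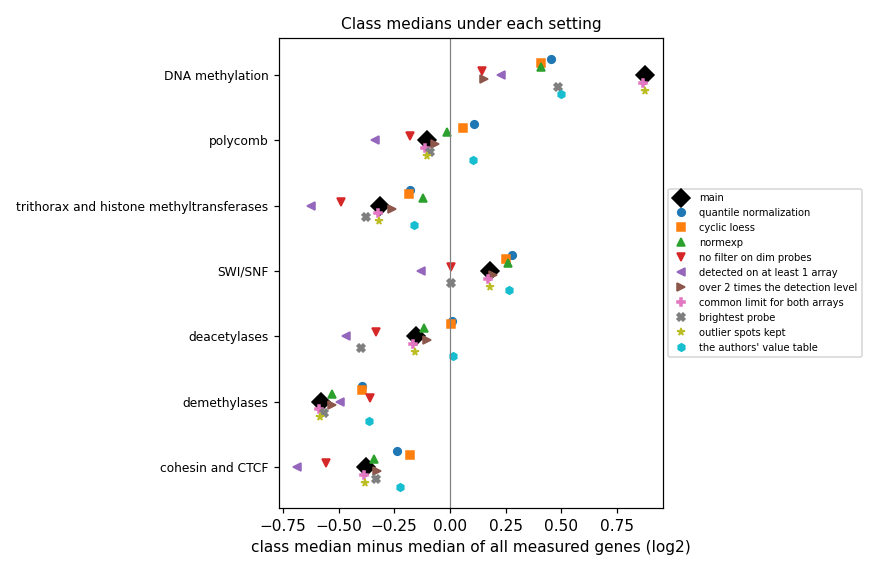
Median log2 difference of each class minus that of all measured genes, with a black diamond for the main setting and coloured markers for the 10 alternatives that do more than shift all genes alike. DNA methylation stays above 0, and trithorax, demethylases and cohesin with CTCF stay below 0, under each setting plotted; the polycomb, SWI/SNF and deacetylase medians lie on both sides.

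A wider list of 115 partner and related genes was drawn from the same complexes and enzyme families. Of these 103 were measured, 1 of them 2-fold or more higher and 2 of them 2-fold or more lower in SoNar-high, beside 4.87% and 1.68% of all genes. Gadd45a, a stress-induced gene linked to DNA demethylation, was the higher one, with 512 in SoNar-high and 206 in SoNar-low (1.17). Brd9, a reader subunit of SWI/SNF, gave 704 and 1314 (-1.05), and Mllt1, an elongation factor and frequent MLL fusion partner, gave 947 and 1761 (-1.04). The median of the 103 was -0.22, and 64 lay below the all-gene median. Uhrf1, which guides Dnmt1 to newly made DNA, was at -0.10 and did not share the value of Dnmt1. The lowest and highest of the other polycomb genes were the PRC2 partner Mtf2 (-0.97) and the PRC1 subunit Pcgf3 (0.28). Among the other methyltransferase genes Setd1a was highest (0.45), among SWI/SNF genes Dpf1 (0.28), among deacetylase complex genes Gatad2b (0.74) with Sin3a lowest (-0.57), and among demethylases Kdm4b (0.54) with Kdm5b lowest (-0.98). Cbx8, another Cbx reader, was detected in SoNar-high alone, but its bound did not reach 2-fold.

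Markers of other cells and of division also differed between the arrays. The proliferation list was measured in full, and its median was -0.15 with summed processed signals of 63738 in SoNar-high and 63669 in SoNar-low. Of its 10 genes 4 had differences above 0 and 6 below, where 36.8% of all measured genes were above 0. Aurkb (2.45), Cdk1 (1.87) and Mcm2 (0.62) were highest, and Rrm2 (-0.59), Mcm5 (-0.51) and Pcna (-0.50) lowest. Of 14 neutrophil genes 11 were measured, with a median of 0.48 and summed signals of 25099 and 18164, and 10 of the 11 lay above the all-gene median. The other non-B-cell lists also had median differences above the all-gene median: 1.12 for natural killer genes (3 of 7 measured), 0.37 for monocyte genes (3 of 8), 0.32 for T cell genes (4 of 8), 0.48 for erythroid genes (5 of 10) and 0.69 for stromal genes (5 of 8). Genes higher in SoNar-high included Cd4 (1.72) and Cd3e (1.26) of T cells, Prf1 (1.22), Gzma (1.12) and Nkg7 (0.99) of natural killer cells, and Csf1r (1.25) of monocytes. Others were Hba-a1 (1.88) and Ermap (1.67) of erythroid cells, and Kdr (1.54) and Lepr (1.02) of stroma and vessels. Cd4, Nkg7, Ermap, Kdr and Lepr each rested on 1 measured probe of several. Cd2 of T cells (-0.63) and Mrc1 of monocytes (-0.56) went the other way, and the measured T cell genes split into 2 above 0 and 2 below. The summed signals were 976 and 448 for natural killer genes and 516 and 340 for monocyte genes. They ran the other way for T cell genes (2792 and 3327), erythroid genes (17622 and 25084) and stromal genes (8937 and 13161), where the bright genes Lck (-0.94), Hemgn (-0.83) and Alpl (-0.83) had less signal in SoNar-high. Cd3d, Klrb1c, Gzmb, Ccr2 and Cxcl12, also on these lists, did not stand well above background in either sample. The part of other cells in the values of Cbx7, Dnmt1 and the other members was not tested, and in bulk RNA fewer cells that express a gene and less RNA per cell cannot be told apart.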

How the data were processed

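The authors deposited 1 scanner file per array. Its spot intensity values are linear and already corrected for background and spatial trend, per the file headers, which name Agilent Feature Extraction 11.0.1.1 (the submitters' processing notes name 9.1). The authors' value table holds log2 values with a median of 5.90 in both columns. How they were normalized is not given in the sources used here, so the table served as an alternative. Its columns correlated with log2 of their own arrays' signals at r = 0.995 and 0.994 across probes.

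Control spots and 685 outlier spots were removed, spots of a probe averaged, and log2 signals scaled to each array's 75th percentile. A gene's value is the mean over probes well above background on both arrays, and a bound is the mean over its detected probes. A call is a log2 difference of at least 1. All members are named by class, with the extremes of a wider list. The members, lists and rules were chosen with earlier results of these data known. Probes were named through RefSeq accessions (GRCm38.p6 table; array annotation mm9), 27115 of 39085. Averaging over spots and probes and the 2-fold call were tested on simulated differences, with detection taken from the real arrays. The scaling, bounds, alternatives and motif search were not tested in that way. The 13 alternatives cover scaling, normalization, background correction, dim-probe filters, probe choice, outlier spots and the authors' table. Python 3.11.15, numpy 2.4.6, pandas 2.3.3, R 4.3.3 and limma 3.58.1 were used.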

Additional observations from a re-analysis of the deposited data

Results flagged for a closer look

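Probes of members that lie outside the measured values still gave signal. The second probe of Tet1 gave a processed signal of 25.9 on the SoNar-high array, and the second probe of Kdm4a gave 22.8 there. Both exceeded 5.50, where the middle 95% of the 153 negative control spots of that array ended, and neither was detected on the SoNar-low array. Neither level allows a fold, since both lie under the lowest detected level of the SoNar-low array.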

How the results depend on the processing

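No paired analysis was possible because there is 1 array a group, and no array could be left out. Against 0 members at least 2-fold lower, the count was 14 of 36 (38.9%, beside 31.4% of all genes) with median scaling, which shifts every difference by -0.61. Against 0 members at least 2-fold higher, it was 1 when the 75th percentile came from spots detected on both arrays (Tet1, beside 7.66% of all genes), 1 without a filter on dim probes and 1 when detection on a single array was enough (Cbx7 in both, beside 13.5% and 20% of all genes). The members' median minus that of all genes, -0.03, was -0.28 when detection on a single array was enough and -0.26 for the brightest probe, and it moved by less than the 0.15 between repeated spots in the other 11 alternatives. By construction the looser filters add dim probes and the scalings shift all genes alike; for the other settings the cause was not tested. Of 464 member values under alternatives, 192 moved by more than 0.15. Precision is limited by the single array a group and, for dim probes, by the background of the SoNar-low array.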
